A study of Mus musculus with 71 samples.

Results

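The Siglecs are cell-surface lectins that bind sialic acid, the sugar that caps many glycoproteins and glycolipids of vertebrate cells. The 6 genes described here are Siglech, Cd33, Siglece, Siglecg, Cd22 and Siglec1, found by their symbols among the 55413 genes of each of 6 deposited expression tables, and all 6 were present in every table. The tables hold 67 bulk RNA-seq libraries, each made from 2000 microglia that were sorted by flow cytometry after a Percoll gradient. The mice carried a reporter of Spp1, the osteopontin gene, and the study compared GFP-positive with GFP-negative microglia and with a reference in 6 settings of disease or injury. A further 4 pools of hashed single cells were not analysed here.

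In the cuprizone setting, a diet with the copper chelator that strips myelin was fed for 5 weeks; 4 control, 3 GFP-negative and 3 GFP-positive libraries came from animals of 8 to 10 weeks. The glioma setting used CT2a, a mouse glioma cell line, taken 21 days after inoculation (4 libraries in each arm, 8 to 10 weeks of age). Experimental autoimmune encephalomyelitis (EAE), an immune attack on myelin, was sampled at recovery to a clinical score of 1 to 2 (3 libraries in each arm, 8 to 10 weeks). The 5xFAD mouse, a transgenic model of Alzheimer's disease that forms amyloid plaques, was sampled at 7 months (4 in each arm). In these 4 settings the controls were wild type, whereas both GFP arms were heterozygous for the Spp1-GFP reporter, and in 5xFAD also for the 5xFAD transgene. Genotype, gate and disease therefore cannot be told apart in any comparison with those controls. The labels call the stroke model SIMPLE; strokes were made at postnatal day 6 (P6) or 28 (P28), and cells were taken at day 9 or 35. All 3 stroke arms, with 4 libraries each, were Spp1-GFP heterozygous. The reference was the contralateral cortex, whose cells the column headers describe as GFP-negative, and the GFP arms came from the stroke cortex. Nothing in the labels says whether a library came from 1 animal or from several, so the p-values measure the spread between these libraries.

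Most Siglecs carry an inhibitory motif in their cytoplasmic tail that is phosphorylated by Src-family kinases and then recruits the phosphatases encoded by Ptpn6 and Ptpn11. Siglec-E, Siglec-G and CD22 belong to that class, while Siglec-H lacks the motif and pairs with the activating adaptor DAP12, encoded by Tyrobp. Sialoadhesin, the product of Siglec1, is a long macrophage receptor that mediates adhesion and is induced by interferon. In mouse brain, Siglech is widely used as a marker of microglia, Siglec-E and CD22 have been described as brakes on microglial phagocytosis, and Siglecg and Cd22 are better known from B cells.

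Of the 6 genes, 5 lie on chromosome 7 in the GRCm38 build (GENCODE annotation) and Siglec1 lies on chromosome 2, at chr2:131069220-131086765 on the minus strand. Siglecg (chr7:43408204-43418358, plus strand), Cd33 (chr7:43524216-43544428, minus) and Siglece (chr7:43651070-43660161, minus) follow each other with gaps of 105857 and 106641 bases. Cd22 (chr7:30865402-30880342, minus) ends 18833 bases from Mag, another Siglec gene, and Siglech stands apart at chr7:55768178-55778925 on the plus strand. RefSeq windows of 250 bases before to 50 bases after the transcription start (GRCm38.p6) were at hand for 5 members, and none for Siglec1. The windows of 4 members are shown because their genes moved in opposite directions in the sorted cells, Siglech, Siglece and Cd33 down and Cd22 up. Capitals mark CACGTG (E-box) and GAGGAA, the core bound by the microglial factor PU.1, on either strand, so that the latter also reads TTCCTC. The windows are chr7:55767934-55768233 (plus strand) for Siglech, chr7:43660112-43660411 (minus) for Siglece, chr7:43533122-43533421 (minus) for Cd33 and chr7:30878979-30879278 (minus) for Cd22.
Siglech: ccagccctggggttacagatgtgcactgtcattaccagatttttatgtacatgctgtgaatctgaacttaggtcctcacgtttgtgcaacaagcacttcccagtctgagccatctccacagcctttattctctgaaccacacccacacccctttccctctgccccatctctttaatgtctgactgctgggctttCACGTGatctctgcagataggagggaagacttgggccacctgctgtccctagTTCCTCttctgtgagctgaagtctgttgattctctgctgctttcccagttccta
Siglece: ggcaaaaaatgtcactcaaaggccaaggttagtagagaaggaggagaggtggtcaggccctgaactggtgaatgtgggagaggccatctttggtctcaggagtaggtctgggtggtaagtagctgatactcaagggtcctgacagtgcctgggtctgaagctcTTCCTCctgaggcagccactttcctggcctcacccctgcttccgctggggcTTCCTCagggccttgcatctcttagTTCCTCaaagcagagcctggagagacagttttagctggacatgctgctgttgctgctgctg
Cd33: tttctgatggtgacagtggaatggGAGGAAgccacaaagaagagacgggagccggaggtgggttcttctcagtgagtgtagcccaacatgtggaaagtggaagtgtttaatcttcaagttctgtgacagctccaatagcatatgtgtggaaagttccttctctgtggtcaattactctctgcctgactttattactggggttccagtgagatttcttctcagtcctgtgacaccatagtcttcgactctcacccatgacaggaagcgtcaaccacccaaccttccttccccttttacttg
Cd22: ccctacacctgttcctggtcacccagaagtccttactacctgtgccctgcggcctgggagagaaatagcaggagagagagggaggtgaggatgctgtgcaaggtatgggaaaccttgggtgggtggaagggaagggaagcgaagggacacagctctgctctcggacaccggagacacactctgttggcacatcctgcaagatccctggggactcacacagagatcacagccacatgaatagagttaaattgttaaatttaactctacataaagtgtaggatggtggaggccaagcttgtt
The Siglece window held 3 GAGGAA cores, starting at bases 164, 215 and 240 of the 300, and those of Siglech and Cd33 held 1 each, at bases 247 and 25. Siglech also held the E-box, at base 195. The first of the 2 annotated Siglecg windows held 2 cores and the other none. Cd22 had no match to either motif in its window. The AP-1 motif TGANTCA, the core of the interferon-stimulated response element and the ETS-IRF composite were also searched on both strands. The letters of the composite overlap those of the interferon core. None of them had a match in any of the 6 windows, and Siglec1 had no window to search. Of all 32851 RefSeq windows of this length, 28.3% held GAGGAA, 7.15% CACGTG, 7.81% TGANTCA, 3.44% the interferon core and 2.72% the composite, so a match to the PU.1 core is common. The Cd22 and Cd33 windows lie inside the GENCODE gene models, whose starts differ from the RefSeq starts used here.

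Expression is given as deposited in TPM, a share of the transcripts of a library that corrects for transcript length, so levels can be set side by side between genes; differences are on the log2(TPM + 1) scale, which understates the change of low genes. The deposited tables hold no counts, so depth is unknown; between 13024 and 17865 genes were above 0 in a library. Mean Spp1 was higher in the GFP-positive than in the GFP-negative arm in all 6 tables, for example 698 against 4.40 TPM in cuprizone and 969 against 99.5 TPM in EAE. All 12 genes of a microglia marker list were above 1 TPM on average in every group, and their summed level fell together with several Siglecs: the median sum was 45249 TPM in glioma controls, 12236 in GFP-negative and 6169 in GFP-positive cells, against 28559, 26427 and 24332 TPM in the P6 stroke table. In bulk libraries, fewer cells of a type and less RNA per cell cannot be told apart. The median gene also moved, and the cause of that shift was not tested: GFP-positive minus GFP-negative, it moved by -0.25 in cuprizone, -0.15 in glioma, 0.05 in EAE, -0.29 in 5xFAD, -0.12 in P6 stroke and -0.30 in P28 stroke on the log2 scale. GFP-positive cells minus the reference, the shift was -0.29, -0.51, -0.41, -0.57, -0.17 and -0.33, in the same order. Values after rescaling each table by its median ratio, which brings the median gene close to 0, are therefore given wherever they end a call. The rescaling also moved the balance of calls over all genes, in P28 stroke GFP-positive against GFP-negative cells from 838 higher and 3316 lower to 1417 and 814.

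In GFP-positive against GFP-negative cells as deposited, Siglech was lower in all 6 settings, Cd33 in 4, Siglece in 3 and Siglecg in 2. Cd22 and Siglec1 were higher in the P28 stroke. A gene was called at an adjusted p under 0.05 by limma (moderated test with Benjamini-Hochberg adjustment over all genes tested in a table). It was tested where at least as many libraries as the smallest group reached 1 TPM. After rescaling, limma no longer called Siglech in 5xFAD (-0.01, adjusted p = 0.973) and the P6 stroke (-0.28, adjusted p = 0.188). The call of Cd33 in cuprizone was also lost (-0.40, adjusted p = 0.268). The counts that follow are for the deposited values. In cuprizone 3 of the 5 members tested were called, all lower in GFP-positive cells, beside 10.2% of all genes called in either direction. In glioma 3 of 6 were lower, beside 6.67% of all genes. EAE gave 1 lower member of 6, beside 0.688%, and 5xFAD 3 lower of 5 tested, beside 8.16%. In P6 stroke 1 of 6 was lower, beside 3.36%, and in P28 stroke all 6 were called, 4 lower and 2 higher, beside 29% of all genes.

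Against the reference, the GFP-negative cells of cuprizone and of the P6 stroke had 0 members called, where limma called 0.163% and 0.274% of all genes. In those tables limma's unadjusted p was under 0.05 for Siglece and Cd22 in cuprizone (0.0318 and 0.0245) and for 0 of 6 members in the P6 stroke. In the P28 stroke only Cd22 was called in GFP-negative cells, beside 0.238% of all genes. There limma's unadjusted p was also under 0.05 for Siglec1 (0.00652) and Siglecg (0.0293). Glioma GFP-negative cells had all 6 members called (52.8% of all genes), EAE 5 of 6 (30.3%) and 5xFAD 4 of 5 (12.7%). For GFP-positive cells against the reference the counts were 4 of 5 in cuprizone (18.2% of all genes), 6 of 6 in glioma (63.7%), 6 of 6 in EAE (29.8%), 5 of 5 in 5xFAD (40%), 2 of 6 in the P6 stroke (3.11%) and 6 of 6 in the P28 stroke (36%). Where the share of all genes called is as large as in glioma, a count of members says little about Siglecs as a group. The comparisons within a table share libraries, so their values stand side by side and were not combined.

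**Figure D1:**
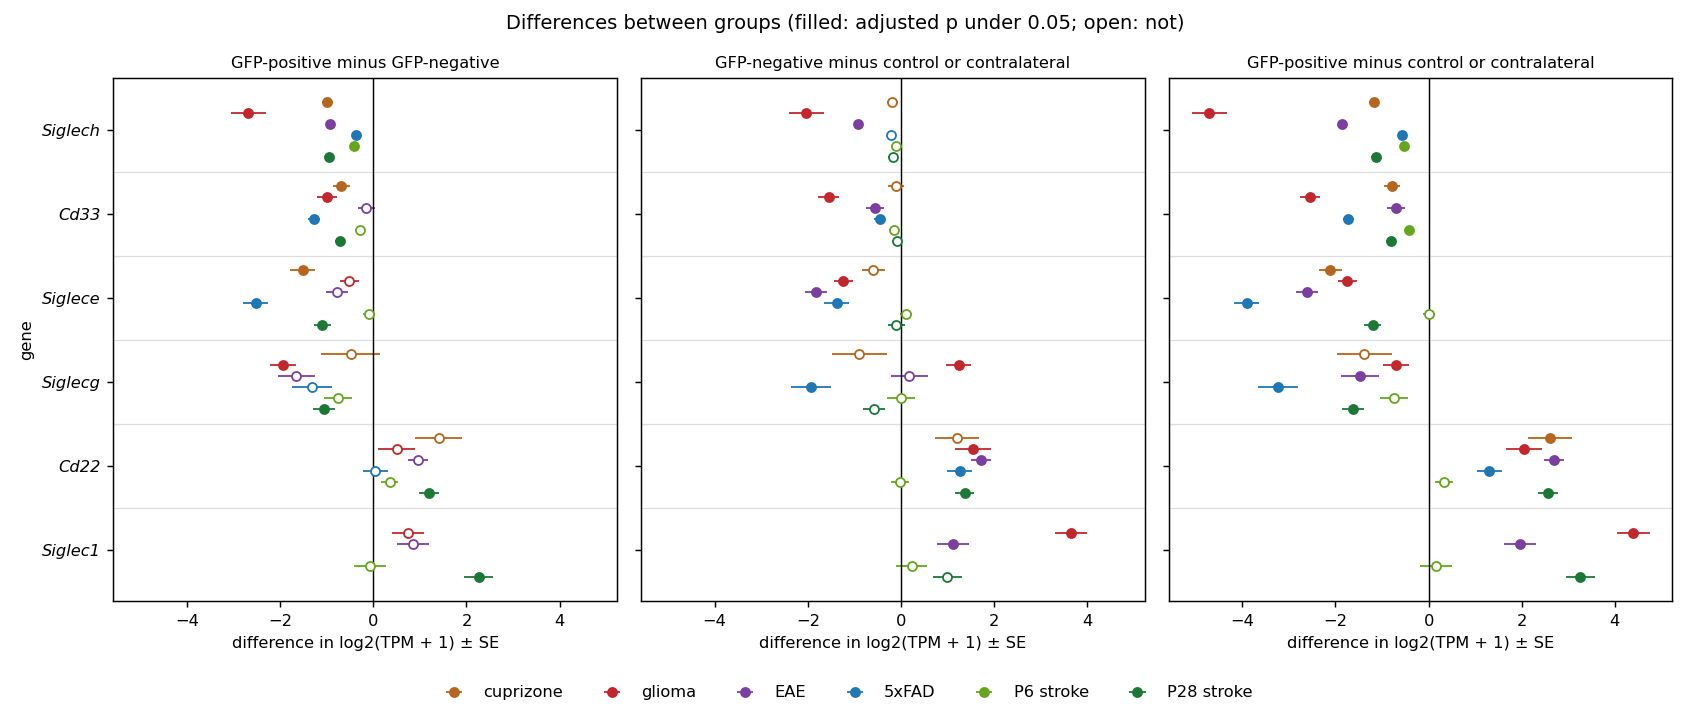
Difference in log2(TPM + 1) for each of the 6 members in the 6 tables, for GFP-positive minus GFP-negative, GFP-negative minus reference and GFP-positive minus reference, with bars for the standard error from limma, colours for the tables and filled points where the adjusted p was under 0.05. Siglech lies below 0 in every panel, from -0.12 to -4.71, and Cd22 is above 0 in every table except for GFP-negative cells of the P6 stroke, at -0.03.

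Siglech had the highest level of the 6 genes in 17 of the 18 groups. In cuprizone the controls stood at 1398, 1328, 1398 and 1146 TPM, GFP-negative cells at 1288, 1232 and 976 and GFP-positive cells at 597, 639 and 519. Each GFP-positive library was below each of the others, and the level fell by 0.99 ± 0.12 (log2, SE) from GFP-negative cells (limma, adjusted p = 0.00017). GFP-negative cells overlapped the controls (-0.18 ± 0.11, adjusted p = 0.729).

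Glioma gave the lowest Siglech levels of the series. Controls held 1818, 1603, 1964 and 1754 TPM, GFP-negative cells 501, 800.2, 226 and 393 TPM, and GFP-positive cells 130.1, 81.7, 36.8 and 50.9 TPM. The 3 arms did not overlap. Both steps passed the test, by -2.03 ± 0.38 from control to GFP-negative (limma, adjusted p = 0.000731) and by -2.68 ± 0.38 from GFP-negative to GFP-positive (adjusted p = 0.0024), and the control mean was 23.8 times the GFP-positive mean. Monocyte-derived markers also moved in this table: the median sum of 12 such genes was 179 TPM in controls, 3105 in GFP-negative and 1535 in GFP-positive cells, with group ranges of 89.9 to 354, 2331 to 5229 and 773 to 2506 TPM, and 8, 12 and 11 of the 12 averaged at least 1 TPM. Ly6c2, a gene of inflammatory monocytes, averaged 0.755, 906 and 621 TPM and Ccr2, their chemokine receptor, 18.3, 122 and 71.0 TPM. Their part in the glioma values of any Siglec was not tested. In the other 5 tables no library passed 109.8 TPM for that sum.

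In EAE the order was the same as in glioma with smaller steps. Controls stood at 1637, 1593 and 1549.7 TPM, GFP-negative cells at 909, 828 and 783 TPM and GFP-positive cells at 445, 449 and 418 TPM. Siglech fell by 0.94 ± 0.09 from GFP-negative to GFP-positive cells (limma, adjusted p = 0.00165). It fell by 0.92 ± 0.09 from controls to GFP-negative cells (adjusted p = 5.28e-05), a call that was lost after rescaling (-0.38, adjusted p = 0.192).

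The P28 stroke had the highest levels, with contralateral cells at 2968, 2831, 2824 and 2956 TPM, GFP-negative cells of the stroke side at 2573, 2445, 2410.1 and 2848 TPM and GFP-positive cells at 1246, 1106, 1266 and 1752 TPM. Only the GFP-positive arm stood apart, 0.95 ± 0.11 below GFP-negative cells (limma, adjusted p = 8.77e-05). In the P6 stroke the arms lay close together, at 1292, 1115, 1096 and 1294 TPM, then 1124, 935, 1079.6 and 1304 TPM, then 874, 755, 779 and 929.7 TPM. GFP-positive cells were 0.41 ± 0.10 below GFP-negative cells (limma, adjusted p = 0.0484), and the call was lost after rescaling (-0.28, adjusted p = 0.188) and without GFP-negative library 1, 3 or 4 or GFP-positive library 2, 3 or 4 (-0.33 to -0.46, adjusted p between 0.0643 and 0.133). Against contralateral cells the difference was -0.52 (adjusted p = 0.0224), and it was lost after rescaling (-0.33, adjusted p = 0.169) and without contralateral library 1, 2 or 4 or GFP-positive library 3 (adjusted p between 0.0537 and 0.0749).

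In 5xFAD, Siglech was 1616, 1406, 1635 and 1642 TPM in controls, 1306, 1251, 1364 and 1530.5 TPM in GFP-negative and 1022, 1129.7, 972 and 1115 TPM in GFP-positive cells. The GFP-positive arm was 0.36 ± 0.09 below GFP-negative cells (limma, adjusted p = 0.0159) and 0.57 below controls (adjusted p = 9.57e-05). The median gene moved by -0.29 and -0.57 in the same comparisons, and after rescaling the Siglech differences were -0.01 (adjusted p = 0.973) and 0.13 (adjusted p = 0.39), the latter with the opposite sign. Without GFP-negative library 4 or GFP-positive library 3 the first of these was -0.30 and -0.32 (adjusted p = 0.0565 and 0.0504).

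Siglech is also a marker of plasmacytoid dendritic cells, and a list of 11 of their other markers was read beside it. Ccr9, Ly6d, Klk1 and Spib, which define that lineage, reached at most 1.69, 3.31, 0.58 and 4.66 TPM in any library, and Ly6d and Klk1 were at 0 in 66 of 67. The summed list went the other way from Siglech in glioma. Its group ranges were 258 to 323 TPM in controls, 1489 to 3198 in GFP-negative and 1612 to 2761 in GFP-positive cells. There limma called 7 of 8 tested members higher in GFP-negative cells than in controls, beside 52.8% of all genes called in either direction. Bst2 and Ly6c2, which are also an interferon-induced gene and a monocyte gene, are on that list. The part of such cells in the Siglech values was not tested.

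**Figure D2:**
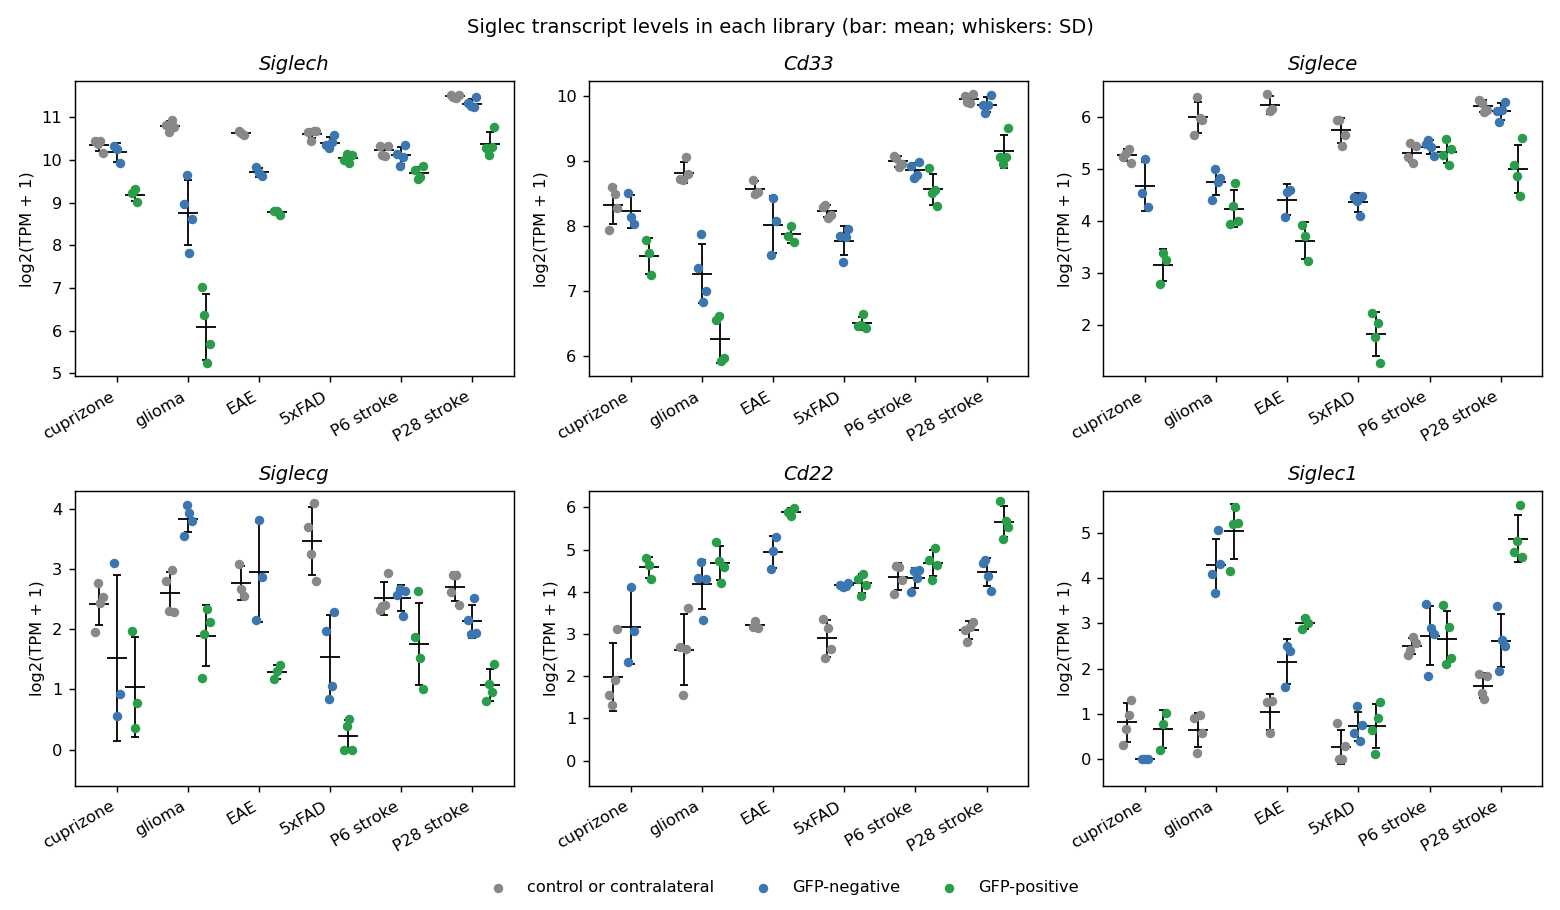
Level of each of the 6 members in all 67 libraries as log2(TPM + 1), by table and arm (reference, GFP-negative, GFP-positive), with 1 point per library, a bar at each group mean and whiskers for the SD. Siglech runs from 36.8 TPM in glioma GFP-positive cells to 2968 TPM in contralateral cells of the P28 stroke, and Siglec1 rises out of the low range in glioma and P28 stroke.

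Cd33, the gene of a receptor of myeloid cells, was the next most abundant member and fell in GFP-positive cells of 4 settings. The clearest was 5xFAD: controls stood at 313, 319, 279 and 288 TPM, GFP-negative cells at 230.2, 174, 228 and 247 TPM and GFP-positive cells at 86.9, 88.2, 99.1 and 85.7 TPM. The 3 arms did not overlap, and the GFP-positive mean was 1.27 ± 0.12 below that of GFP-negative cells (limma, adjusted p = 1.94e-05). The smaller step from controls to GFP-negative cells (-0.46, adjusted p = 0.0236) was lost after rescaling (-0.11, adjusted p = 0.696), and without control library 2 or GFP-negative library 2 (-0.43 and -0.35, adjusted p = 0.0597 and 0.0802).

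In the P28 stroke, Cd33 was 1019, 959.9, 949.5 and 1039 TPM contralaterally, 930.1, 849, 928 and 1031 TPM in GFP-negative and 534, 494, 535 and 728 TPM in GFP-positive cells. GFP-negative cells overlapped the contralateral ones and only the GFP-positive cells were lower, by 0.72 ± 0.11 (limma, adjusted p = 0.000347). Glioma held 421, 419, 533 and 443 TPM, then 163, 233, 114 and 128 TPM, then 93.2, 97.6, 59.7 and 61.8 TPM across the same order of arms. There Cd33 fell from control to GFP-negative cells by 1.55 ± 0.22 (limma, adjusted p = 9.9e-05) and again to GFP-positive cells by 1.00 ± 0.22 (adjusted p = 0.0183). The latter was lost without GFP-positive library 3 or 4 (-0.88 and -0.90, adjusted p = 0.0543 and 0.0568).

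Cuprizone had the least firm call of the 4. Cd33 stood at 245, 385, 359 and 309 TPM in controls, 363, 282 and 260.1 TPM in GFP-negative and 219, 191 and 150.3 TPM in GFP-positive cells. The drop of 0.69 from GFP-negative cells (limma, adjusted p = 0.0303) was lost after rescaling (-0.40, adjusted p = 0.268) and without GFP-negative library 1 or 2 or GFP-positive library 2 or 3 (-0.54 to -0.73, adjusted p between 0.0619 and 0.127). Against controls it was -0.79 (adjusted p = 0.00639), which was also lost after rescaling (-0.45, adjusted p = 0.115). In EAE the GFP arms overlapped widely, at 187, 344 and 269 TPM and 230.1, 257 and 215 TPM, below controls of 419, 359 and 368 TPM. They did not differ from each other past the threshold (-0.15 ± 0.19, adjusted p = 0.824), and the calls of both against controls (-0.56 with 0.0492 and -0.70 with 0.0195) were lost after rescaling (-0.02 and -0.23, adjusted p = 0.957 and 0.308). The first was also lost without any one of the libraries except GFP-negative 2 (adjusted p between 0.0796 and 0.136), the other without control 1 or GFP-positive 1 or 3 (adjusted p between 0.0582 and 0.0702). In P6 stroke Cd33 ran from 315 to 539.8 TPM over the 12 libraries, and GFP-positive cells did not pass the test against GFP-negative cells (-0.29 ± 0.11, adjusted p = 0.129) except without GFP-positive library 1 (-0.40, adjusted p = 0.0149). Against contralateral cells the -0.43 passed (adjusted p = 0.0447) but was lost after rescaling (-0.24, adjusted p = 0.196) and without any one library other than GFP-positive 1 (adjusted p between 0.0728 and 0.117).

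Siglece encodes Siglec-E, an inhibitory receptor of microglia, neutrophils and monocytes. In 5xFAD it fell in steps: controls held 60.1, 60.2, 42.1 and 49.3 TPM, GFP-negative cells 21.1, 20.0, 16.0 and 21.3 TPM and GFP-positive cells 3.72, 2.42, 3.11 and 1.42 TPM. The arms did not overlap, and the control mean was 19.8 times the GFP-positive mean. The step from GFP-negative to GFP-positive cells was -2.52 ± 0.26 (limma, adjusted p = 3.21e-05) and that from control to GFP-negative cells -1.38 ± 0.26 (adjusted p = 0.00309).

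In cuprizone and the P28 stroke Siglece passed the test in GFP-positive cells and not in GFP-negative cells against the reference. The cuprizone values were 36.6, 38.5, 40.6 and 33.7 TPM in controls, 22.3, 35.2 and 18.2 TPM in GFP-negative and 5.96, 9.43 and 8.56 TPM in GFP-positive cells, a drop of 1.52 ± 0.27 between the GFP arms (limma, adjusted p = 0.00284). In the P28 stroke contralateral cells held 78.9, 75.9, 66.8 and 69.0 TPM, GFP-negative cells 67.8, 58.5, 68.5 and 76.4 TPM and GFP-positive cells 32.7, 28.1, 21.3 and 47.0 TPM, a drop of 1.10 ± 0.18 (adjusted p = 0.000754). In both tables the GFP-negative cells overlapped the reference.

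In glioma and EAE, by contrast, Siglece was already low in GFP-negative cells. EAE controls stood at 84.9, 68.4 and 69.7 TPM, GFP-negative cells at 15.8, 22.6 and 23.1 TPM and GFP-positive cells at 14.1, 12.1 and 8.42 TPM. GFP-negative cells were 1.82 ± 0.23 below controls (limma, adjusted p = 0.000427), and the further 0.79 to GFP-positive cells did not pass the test (adjusted p = 0.225, and 0.00968 with libraries weighted by quality). In glioma the means were 63.3, 26.2 and 18.3 TPM, with -1.23 ± 0.20 to GFP-negative cells (limma, adjusted p = 0.000313) and -0.51 ± 0.20 between the GFP arms (adjusted p = 0.157). In P6 stroke all 12 libraries lay between 32.8 and 46.7 TPM, and the GFP arms differed by -0.10 ± 0.13 (limma, adjusted p = 0.699).

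Siglecg encodes Siglec-G, an inhibitory receptor best known from B cells, and its group means lay between 0.185 and 13.4 TPM. Glioma was the one table where it rose in any comparison. Controls held 5.99, 3.93, 6.87 and 3.90 TPM, GFP-negative cells 10.7, 15.8, 14.2 and 12.8 TPM and GFP-positive cells 1.27, 2.78, 4.07 and 3.35 TPM. The GFP-negative arm stood above both others, 1.24 ± 0.27 over controls (limma, adjusted p = 0.00224) and 1.94 ± 0.27 over GFP-positive cells (adjusted p = 0.00235). Markers of other cells also moved in this table. The median sum of 8 dendritic cell markers was 82.8, 448 and 76.8 TPM in controls, GFP-negative and GFP-positive cells (ranges 56.2 to 101.02, 243 to 623 and 25.8 to 201 TPM). By limma, 5 of 7 tested were higher in GFP-negative cells than in controls, beside 52.8% of all genes. Between the GFP arms 5 of 7 were lower in GFP-positive cells, beside 6.67%. NK cell markers were higher in GFP-negative cells than in controls in 6 of 6 (ranges of the sum 0 to 1.39, 104 to 226 and 24.9 to 239 TPM in the 3 arms) and T cell markers in 6 of 7 (0.4 to 1.71, 23.9 to 32.6 and 28.9 to 123 TPM). Unlike Siglecg, neither list had a gene called between the GFP arms. In GFP-positive cells 6 of 6 and 7 of 7 were higher than in controls, beside 63.7% of all genes. The 3 tested B cell markers were all lower in GFP-negative cells than in controls. The part of these cell types in the Siglecg values was not tested. The GFP-positive cells were 0.70 below controls (adjusted p = 0.0375), a call lost after rescaling (-0.23, adjusted p = 0.523) and without control library 1 or 3 or GFP-positive library 1 or 2 (-0.47 to -0.71, adjusted p between 0.0621 and 0.113).

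In 5xFAD, Siglecg stood at 12.01, 8.47, 16.1 and 5.99 TPM in controls and 2.91, 0.790, 1.08 and 3.87 TPM in GFP-negative cells, and in GFP-positive cells 2 libraries were listed at 0 and the others at 0.310 and 0.430 TPM. GFP-negative cells were 1.92 ± 0.43 below controls (limma, adjusted p = 0.00859, and 0.0605 with a pseudocount of 0.1), and GFP-positive cells 3.23 ± 0.43 below (adjusted p = 3.26e-05). The -1.31 ± 0.43 between the GFP arms did not pass (limma, adjusted p = 0.0775, and 0.0244 with a pseudocount of 0.1). The P28 stroke held 5.16, 6.46, 6.50 and 4.26 TPM, then 3.43, 2.80, 4.70 and 2.82 TPM, then 0.750, 1.14, 0.950 and 1.68 TPM. GFP-positive cells did not overlap the others there and were 1.06 ± 0.24 below GFP-negative cells (limma, adjusted p = 0.00503). In EAE the GFP-negative libraries spread from 3.47 to 13.02 TPM, and GFP-positive cells, at 1.26, 1.46 and 1.64 TPM, passed the test against controls of 7.46, 5.34 and 4.85 TPM (-1.47 ± 0.40, limma, adjusted p = 0.0197), though not without control library 1 or GFP-positive library 1 or 2 (adjusted p = 0.0707, 0.0621 and 0.0546). Between the EAE GFP arms, which did not overlap, the -1.65 ± 0.40 did not pass (limma, adjusted p = 0.121). It passed with libraries weighted by quality (adjusted p = 0.00563) and without GFP-negative library 1 (adjusted p = 0.0239). No comparison passed for Siglecg in cuprizone, where it ran from 0.290 to 7.60 TPM, or in the P6 stroke, where it ran from 1.02 to 6.60 TPM.

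Cd22, whose product is an inhibitory co-receptor of B cells, moved opposite to Siglech. Its highest levels were in EAE, with controls at 7.93, 8.95 and 7.90 TPM, GFP-negative cells at 22.3, 30.3 and 38.2 TPM and GFP-positive cells at 58.7, 54.7 and 62.5 TPM. The 3 arms did not overlap. GFP-negative cells were 1.73 ± 0.21 above controls (limma, adjusted p = 0.000333) and GFP-positive cells 2.69 ± 0.21 above (adjusted p = 9.29e-06), while the 0.96 between the GFP arms missed the threshold (adjusted p = 0.0841, and 0.65 with 0.0241 when libraries were weighted by quality).

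The P28 stroke was the one table in which Cd22 passed between the GFP arms. Contralateral cells held 7.54, 6.01, 8.04 and 8.81 TPM, GFP-negative cells 24.7, 26.1, 19.8 and 15.3 TPM and GFP-positive cells 70.0, 37.3, 50.03 and 45.7 TPM. The GFP-positive mean was 2.36 times the GFP-negative mean, a difference of 1.20 ± 0.21 (limma, adjusted p = 0.000948). Cd22 was also the only member called between GFP-negative and contralateral cells, at 1.37 ± 0.21 (limma, adjusted p = 0.0206). That call was lost without contralateral library 1 or 2 or GFP-negative library 1 or 2 (1.27 to 1.37, adjusted p = 0.0655, 0.061, 0.09 and 0.117).

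In 5xFAD Cd22 rose in both GFP arms, from 9.25, 4.37, 7.89 and 5.28 TPM in controls to 16.8, 16.4, 16.6 and 17.6 TPM in GFP-negative and 18.8, 14.03, 20.4 and 16.9 TPM in GFP-positive cells. The GFP arms differed by 0.04 ± 0.27 (limma, adjusted p = 0.948) and were 1.26 and 1.303 above controls (adjusted p = 0.00603 and 0.00128). Glioma held 5.44, 1.95, 5.23 and 11.3 TPM in controls, 19.1, 25.2, 9.14 and 18.9 TPM in GFP-negative and 35.3, 25.6, 17.4 and 23.0 TPM in GFP-positive cells. Both GFP arms passed against controls (1.55 and 2.05, limma, adjusted p = 0.00559 and 0.000589) and they overlapped each other. In cuprizone the controls stood at 1.93, 1.51, 2.74 and 7.72 TPM, the GFP-negative cells spread over 4.08, 16.2 and 7.47 TPM, and the GFP-positive cells stood at 27.1, 23.7 and 18.9 TPM. GFP-positive cells were 2.61 ± 0.47 above controls (limma, adjusted p = 0.00192), and the 1.41 ± 0.51 over GFP-negative cells did not pass (adjusted p = 0.0991). In the P6 stroke Cd22 was between 14.4 and 31.6 TPM in all 12 libraries with no comparison past the threshold.

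B cells, the best known source of Cd22 and Siglecg RNA, were read through 12 other markers. Cd79a, Ms4a1 and Pax5, which define the lineage, reached at most 1.22, 0.44 and 0.60 TPM in any library. The summed list lay between 82.1 and 729 TPM per library and came from Ighm, Cd79b and Ighd, the 3 members that passed the filter in every table. In EAE, where Cd22 was highest, the sum ranged from 376 to 425 TPM in controls, from 241 to 275 in GFP-negative and from 134 to 137 in GFP-positive cells. Of these 3 genes limma called none higher in any of the 18 comparisons. In EAE, 3 of 3 were lower in both GFP arms against controls, beside 30.3% and 29.8% of all genes called in either direction. The median gene moved by -0.47 and -0.41 there. The unnamed antisense gene Gm29439 lies inside Cd22; it did not exceed 1.79 TPM in any library, and the deposited values do not say whether counting used strand.

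Siglec1 was near 0 in most references and rose in glioma, EAE and the P28 stroke. Glioma controls held 0.860, 0.1, 0.960 and 0.480 TPM, GFP-negative cells 16.0, 11.7, 32.6 and 18.9 TPM and GFP-positive cells 16.8, 35.7, 46.8 and 36.4 TPM. Both GFP arms were far above controls, by 3.64 ± 0.35 and 4.40 ± 0.35 (limma, adjusted p = 4.52e-06 and 4.24e-07), and they overlapped each other (0.75 ± 0.35, adjusted p = 0.226). The P28 stroke gave another pattern, with 2.67, 1.76, 1.5 and 2.55 TPM contralaterally, 9.45, 2.88, 5.19 and 4.69 TPM in GFP-negative and 23.0, 27.5, 48.4 and 21.1 TPM in GFP-positive cells. Here the GFP-positive cells stood apart by 2.26 ± 0.31 (limma, adjusted p = 0.000211), and the GFP-negative cells did not pass against contralateral cells (1.00 ± 0.31, adjusted p = 0.315).

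EAE showed a smaller rise of Siglec1, from 1.40, 0.490 and 1.42 TPM in controls to 2.00, 4.65 and 4.21 TPM in GFP-negative and 6.35, 7.75 and 7.06 TPM in GFP-positive cells. GFP-positive cells passed against controls (1.97 ± 0.34, limma, adjusted p = 0.00208). GFP-negative cells passed at 1.12 (adjusted p = 0.035), which was lost without any of 5 of the 6 libraries, the exception being GFP-negative library 1 (adjusted p between 0.0552 and 0.115). In the P6 stroke the reference already held 3.93, 4.35, 5.5 and 4.96 TPM and the GFP arms overlapped it, at 2.58 to 9.70 and 3.27 to 9.57 TPM (GFP arms, -0.07 ± 0.34, adjusted p = 0.927). In cuprizone and 5xFAD Siglec1 stayed at or below 1.47 TPM in every library and was not tested; the 3 cuprizone GFP-negative libraries were listed at 0.

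A list of 16 interferon-response genes was read beside Siglec1. By limma, all 16 rose in both GFP arms of glioma (median log2 difference 5.43 and 5.01) and of EAE (3.54 and 3.13) against controls, where the median of all genes was -0.37, -0.51, -0.47 and -0.41. In the P28 stroke all 16 rose from GFP-negative to GFP-positive cells (2.35, beside -0.30 over all genes), as Siglec1 did. In P28 stroke GFP-negative against contralateral cells limma called 5 of 16 higher (median 1.33, with unadjusted p under 0.05 for all 16) and did not call Siglec1. Between the EAE GFP arms the median of the list was -0.41, with 1 of 16 called lower, while Siglec1 was 0.85 higher without passing the test (adjusted p = 0.4). In cuprizone and the P6 stroke limma called 0 of 16 in each comparison, with unadjusted p under 0.05 for at most 2; after rescaling 2 were called higher in cuprizone GFP-positive cells against controls. In 5xFAD 15 and 16 of the 16 rose in the GFP-negative and GFP-positive arms against controls (1.98 and 1.83, beside -0.28 and -0.57 over all genes). Siglec1 stayed at 1.40 TPM or less there and was too low to be tested. Its means were 0.238 TPM in controls, 0.678 in GFP-negative and 0.72 in GFP-positive cells. Irf7, an interferon-induced transcription factor, was 5.76, 3.56 and 1.31 higher in GFP-negative cells than in controls in glioma, EAE and 5xFAD (limma, adjusted p = 2.1e-09, 1.7e-07 and 0.0053). Border-associated macrophages, a cell type known to express Siglec1, were read through 12 markers. Mrc1, their mannose receptor, averaged 181, 152 and 137 TPM in the 3 arms of the P6 stroke, Cd163 and Lyve1 did not exceed 8.85 and 11.9 TPM in any library, and Lyve1 was at 0 in 50 of 67. The summed list ranged in the P28 stroke from 498 to 612 TPM contralaterally and from 315 to 475 TPM in GFP-positive cells. In glioma it ranged from 589 to 778, 330 to 668 and 336 to 1190 TPM in controls, GFP-negative and GFP-positive cells, with medians of 701, 505 and 940 TPM. Single markers of the list rose where Siglec1 rose, and also where it was not called. In glioma limma called 4 of 9 tested markers higher and 1 lower in GFP-negative cells against controls, and 6 and 1 in GFP-positive cells. Of all genes, 52.8% and 63.7% were called there. It called 3 of 7 higher and 1 lower in each GFP arm of EAE against controls (30.3% and 29.8% of all genes). In P28 stroke GFP-positive cells it called 4 of 8 higher and 1 lower against GFP-negative cells (29%) and 3 and 1 against contralateral cells (36%). In P6 stroke GFP-positive cells, 2 of 9 were higher and 0 lower against GFP-negative and against contralateral cells (3.36% and 3.11%). In 5xFAD, 1 of 9 was higher in each GFP arm against controls, with 1 lower in GFP-negative and 3 lower in GFP-positive cells (12.7% and 40%). All 12 were tested in cuprizone, where 0 were higher and 8 lower in GFP-positive cells against controls (18.2%). There 0 were higher and 1 lower between the GFP arms (10.2%) and in GFP-negative cells against controls (0.163%). The part of these cells in the Siglec1 values was not tested.

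The makeup of the family changed with these movements. In the 6 reference groups Siglech gave 67.4% to 80.9% of the summed TPM of the 6 members and Cd33 most of the rest. In glioma GFP-positive cells the sum was 233 TPM, against 717 in GFP-negative and 2314 in control cells, and Siglech gave 30.5% ± 10.7 (SD, n = 4), Cd33 33.3% ± 2.69, Siglec1 15.8% ± 8.05, Cd22 10.8% ± 1.55 and Siglece 8.30% ± 3.59. Cd33 thus stood level with Siglech in that group within the spread of its libraries, and it is the one group whose highest mean was not Siglech. The EAE GFP-positive cells had 58.3% Siglech, 31.2% Cd33 and 7.85% Cd22. In 5xFAD the share of Siglech went the other way, from 80.9% in controls to 84.1% and 90.5% in GFP-negative and GFP-positive cells, as Cd33 dropped to 7.72%.

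**Figure D3:**
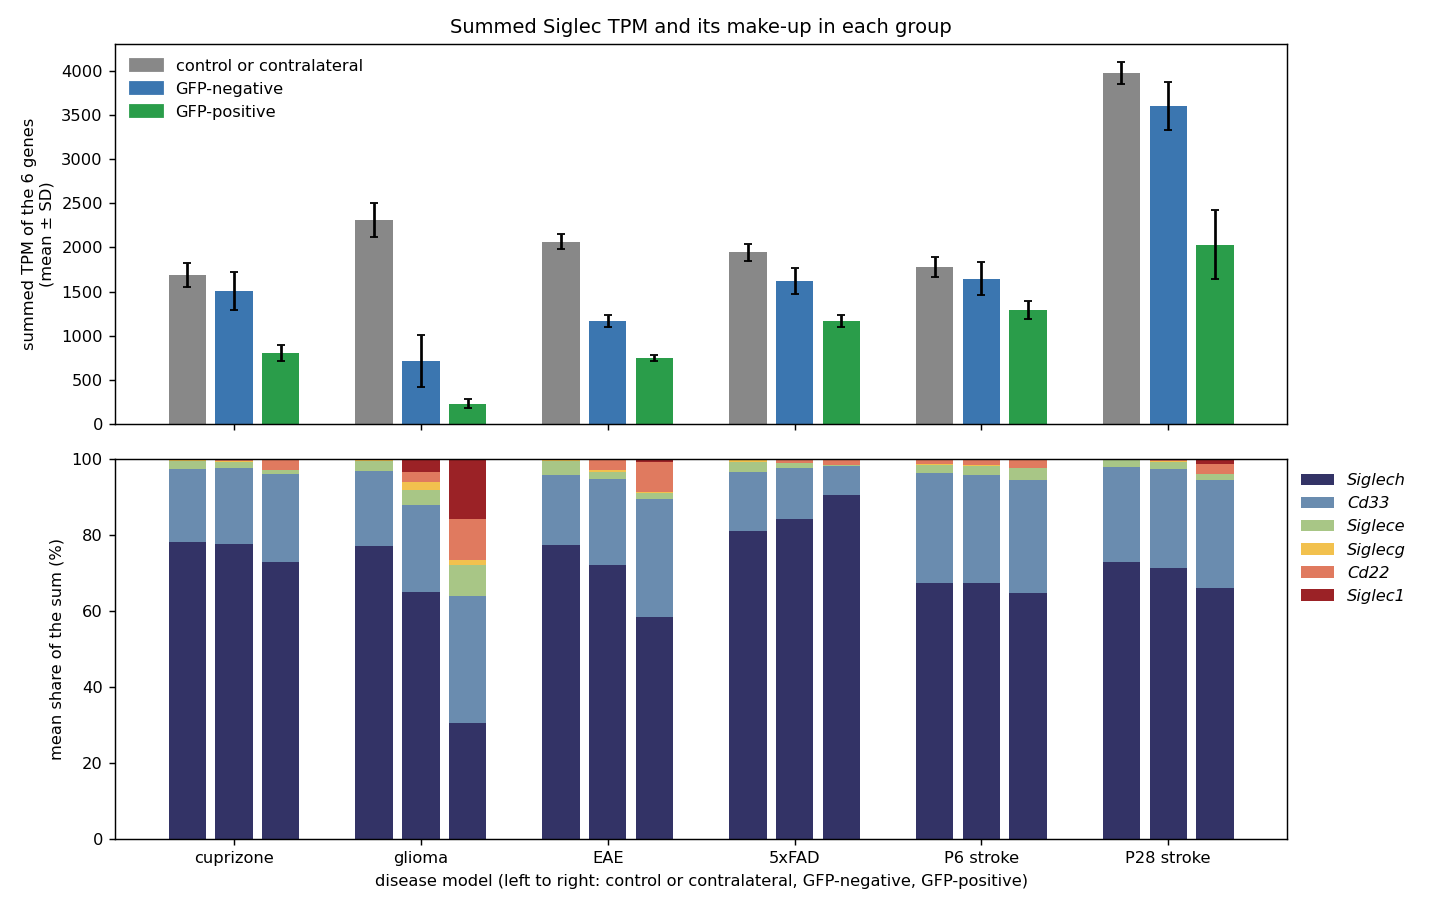
Top, summed TPM of the 6 members in each of the 18 groups (bars from 0, mean with SD); bottom, mean share of that sum given by each member in percent, as stacked bars. Siglech takes up most of each bar apart from glioma GFP-positive cells, where it is 30.5% and Cd33 33.3%.

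Ordered by mean over the 18 groups, Siglech ran from 2895 TPM in contralateral cells of the P28 stroke to 74.9 TPM in glioma GFP-positive cells, 38.7 times lower. Of the 17 steps between neighbours in that order, 5 were larger than the spread of both groups and 12 were within it; no level was tested between tables, which the authors deposited separately. Cd33 ran from 992 to 78.1 TPM between the same groups, with 2 of 17 steps beyond the spread. Siglece was highest in EAE controls (74.3 TPM) and lowest in 5xFAD GFP-positive cells (2.67 TPM), and Siglecg was highest in glioma GFP-negative cells (13.4 TPM) and lowest in 5xFAD GFP-positive cells (0.185 TPM). For Cd22 the order ran from EAE GFP-positive cells (58.6 TPM) to cuprizone controls (3.48 TPM), with its 1 clear step between 5xFAD GFP-negative (16.8 TPM) and cuprizone GFP-negative cells (9.25 TPM). All 3 arms of the P6 stroke, including the contralateral cells of day 9 at 19.9 ± 4.30 TPM (SD, n = 4), were above that step. For Siglec1 the single clear step fell below the glioma GFP-negative cells (19.8 TPM), the P28 GFP-positive cells and the glioma GFP-positive cells (30.0 and 33.9 TPM) ranking above it.

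Whether a difference varied between the 6 settings was tested with an F test over the 11301 genes tested in all tables, with a separate spread for each table, and counted only where a second F test that uses each table's own spread for each gene also called it. On simulated data both F tests, and the tests of pairs of tables that go with them, made more false calls than the 0.05 threshold allows, so their adjusted p-values are too small. For GFP-positive minus GFP-negative, 3 of the 5 members in that fit varied, Siglech, Siglece and Cd33, beside 19.6% of all genes. All 5 varied for GFP-negative minus reference (48.3% of all genes) and for GFP-positive minus reference (54.4%). These shares of all genes count calls of the first F test alone, so they rest on a looser rule than the member counts. Siglec1 was outside that fit because of the filter. The reference was wild-type controls in 4 settings and contralateral cells of Spp1-GFP heterozygous mice in the strokes. In comparisons with the reference, variation between settings therefore cannot be told apart from this difference in reference. Pairs of tables were likewise counted where both kinds of test called them, with the values of the first given here. Among the 15 pairs, the drop of Siglech between the GFP arms was larger in glioma than in 4 others: the difference was 1.69 ± 0.35 for cuprizone minus glioma, -2.32 ± 0.36 for glioma minus 5xFAD, -2.28 ± 0.27 for glioma minus P6 stroke and -1.73 ± 0.27 for glioma minus P28 stroke (log2, SE, adjusted p = 0.00336, 4.03e-05, 3.07e-08 and 1.71e-05). Siglece differed in 6 pairs. Its drop in 5xFAD was larger than in glioma (2.01 ± 0.33 for glioma minus 5xFAD), EAE (1.74 ± 0.36 for EAE minus 5xFAD), the P6 stroke (-2.43 ± 0.31 for 5xFAD minus P6) and the P28 stroke (-1.43 ± 0.31 for 5xFAD minus P28), with adjusted p = 0.000113, 0.00507, 1.88e-06 and 0.00912. The P6 stroke stood apart from cuprizone (-1.42 ± 0.30 for cuprizone minus P6, adjusted p = 0.00162) and from the P28 stroke (1.00 ± 0.23 for P6 minus P28, adjusted p = 0.00172). Cd33 differed in 2 pairs, with a larger drop in 5xFAD than in EAE (1.12 ± 0.30 for EAE minus 5xFAD, adjusted p = 0.0249) and the P6 stroke (-0.98 ± 0.26 for 5xFAD minus P6, adjusted p = 0.024). Only the first kind of test called Siglech for glioma minus EAE (-1.74, adjusted p = 0.00212, and 0.0529 by the second) and Cd33 for glioma minus EAE and glioma minus P6 stroke (adjusted p = 0.0471 and 0.0374, and 0.131 and 0.167 by the second). Of all genes, between 1.09% and 11.8% were called in the pairs named here. For Siglecg and Cd22 the F test over GFP-positive minus GFP-negative gave adjusted p = 0.169 and 0.148, and 0 of 15 pairs passed both tests.

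Across the 67 libraries, centred on the mean of their table, the members split into opposed sets. Siglech and Cd33 went together (Pearson r = 0.86), as did Siglece and Cd33 (r = 0.79), while Cd22 was negatively related to Siglech, Siglece, Siglecg and Cd33 in 6 of 6 tables. Siglech and Siglec1 had r = -0.80 over all libraries, with a negative sign in 5 of 6 tables. Among 7146 genes of at least 10 TPM, Siglech was most like Cst3, the cystatin C gene (r = 0.97), Gpr34 (0.96) and Ltc4s (0.96), and Cd33 most like Slco2b1 (0.96), Csf1r, the receptor on which microglia depend (0.96), and Sall1, a transcription factor of microglial identity (0.96). Siglece was most like Sash3 (0.95), Mkln1 (0.95) and Ggta1 (0.94), though within single tables r for Sash3 and Ggta1 ran down to 0.02 and -0.08. Siglec1 followed the interferon genes Irf7, Oas3 and Ifi209 (0.90, 0.89 and 0.89), with within-table values from 0.11 to 0.98. Cd22 was most like Cd83, Ly9 and Ctsb (0.89, 0.88 and 0.87), though within single tables r for Ly9 ran down to -0.36, and Siglecg least like any gene, with Rel, Dusp16 and Vrk1 at 0.79, 0.78 and 0.77. These are descriptions over libraries that share their groups and their normalization.

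**Figure D4:**
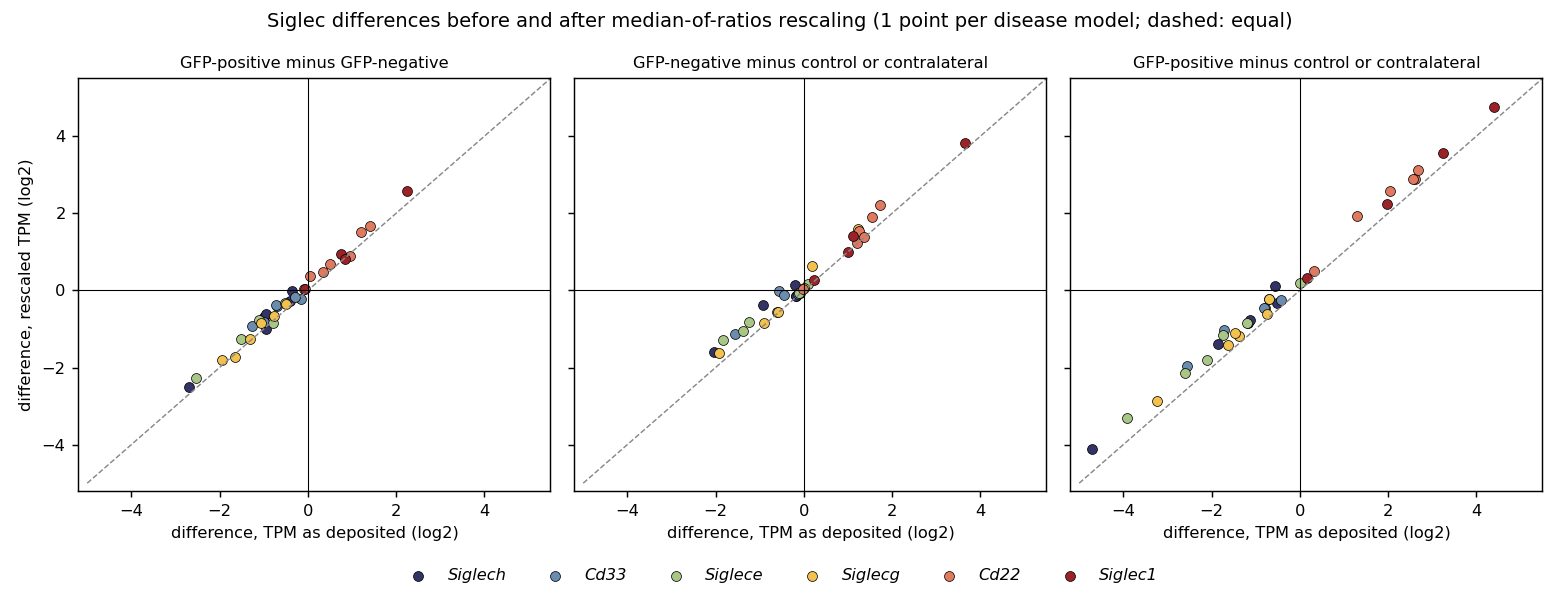
Difference in log2(TPM + 1) as deposited (x axis) against the same difference after median-of-ratios rescaling (y axis), with 1 point per member and table, a panel for each of the 3 comparisons and a dashed line of equality. Between the GFP arms, Siglech in 5xFAD moves from -0.36 to -0.01, while Siglece in 5xFAD remains at -2.27 and Siglec1 in the P28 stroke at 2.57.

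Of the other Siglec genes in the tables, Siglecf encodes Siglec-F, a receptor known from eosinophils. Its mean was 49.3 TPM in 5xFAD controls, 91.7 in GFP-negative and 110 in GFP-positive cells, and it was called higher in 8 of 18 comparisons by limma and in 9 after rescaling, with 0 called lower. Between the GFP arms it passed in cuprizone (0.86, adjusted p = 0.016) and in the P28 stroke (0.67, adjusted p = 0.0016). Mag, the myelin-associated glycoprotein of oligodendrocytes, was lower in 8 of 18, for example 43.5, 20.4 and 8.18 TPM on average in the arms of 5xFAD, but in only 1 after rescaling. Siglec15 was listed at 0 in all 67 libraries.

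Signalling partners were read from a list of 14 genes, all tested in every table. Between the GFP arms 2 rose and 3 fell in cuprizone, 0 and 2 in glioma, 0 and 0 in EAE (unadjusted p under 0.05 for 2), 1 and 3 in 5xFAD, 0 and 2 in P6 stroke and 3 and 6 in P28 stroke, where 10.2%, 6.67%, 0.688%, 8.16%, 3.36% and 29% of all genes were called. After rescaling the counts were 2 and 0, 1 and 1, 0 and 0, 4 and 2, 0 and 0, and 5 and 2 in the same order, so the excess of lower over higher calls was not kept. Lyn, a kinase that phosphorylates the inhibitory tails, fell in 13 of 18 comparisons, by 0.83 between the GFP arms of 5xFAD (limma, adjusted p = 0.00047), of which 2 were called after rescaling. Inpp5d, the SHIP1 phosphatase gene, fell in 11 and in 7 after rescaling, and Syk in 10 and 6. Fgr, like Lyn a Src-family kinase, rose in 10 (11 after rescaling), by 1.96 between the GFP arms of the P28 stroke (adjusted p = 0.00033). Tyrobp, the adaptor of Siglec-H, rose in 7 and fell in 1, and after rescaling rose in 10 and fell in none. Between the GFP arms Tyrobp rose by 0.37 in cuprizone, 0.55 in 5xFAD and 0.50 in the P28 stroke (limma, adjusted p = 0.011, 0.0012 and 0.00066). Siglech was lower in those comparisons as deposited, but in 5xFAD its difference was -0.01 after rescaling (limma, adjusted p = 0.973).

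Protein ligands and partners, 13 genes of which 9 to 12 were tested, had more calls upward than downward in the P28 stroke, cuprizone and 5xFAD. Between the GFP arms 4 rose and 1 fell of 9 in the P28 stroke, 5 and 1 of 9 in cuprizone and 2 and 1 of 9 in 5xFAD. Of all genes, 29%, 10.2% and 8.16% were called there. The other tables gave 1 and 2 of 12 in glioma, 0 and 1 of 9 in EAE and 1 and 1 of 10 in P6 stroke, beside 6.67%, 0.688% and 3.36% of all genes. After rescaling the P28 stroke gave 8 and 1, cuprizone 6 and 1, glioma 3 and 2, EAE 0 and 1, 5xFAD 3 and 1 and the P6 stroke 1 and 1. Lgals3, galectin-3, rose in 13 of 18 comparisons (14 after rescaling) and Selplg, a mucin-like selectin ligand, fell in 13 with or without rescaling. Cd52, whose small glycoprotein binds a Siglec in human cells, rose in 11, by 2.04 between the GFP arms at P28 (limma, adjusted p = 2.2e-05). C3, a complement protein, rose in 9 and Cd44, a hyaluronan receptor, in 8. Trem2 fell in both GFP arms of glioma (-1.42 and -1.93 against controls, adjusted p = 0.00012 and 4.6e-06) and rose in those of 5xFAD (0.73 and 1.14, adjusted p = 3.3e-05 and 4.9e-08). Trem2 encodes a lipid-sensing receptor that shares the DAP12 adaptor with Siglec-H.

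The sugar itself is made, attached and removed by separate enzymes. Of 11 genes of sialic acid synthesis and transport, 10 were tested and only 1, in the P28 stroke, was called between the GFP arms: Gne, the first enzyme of the route, fell by 0.66 (limma, adjusted p = 0.026), a call not made after rescaling. Rescaling gave 1 higher call each in cuprizone, the P6 stroke and the P28 stroke instead. Sialyltransferases, 20 genes of which 11 to 13 were tested, had more calls downward than upward as deposited: between the GFP arms 1 rose and 4 fell in cuprizone, 0 and 3 in glioma, 0 and 1 in EAE, 0 and 3 in 5xFAD, 0 and 0 in P6 stroke (unadjusted p under 0.05 for 3) and 0 and 3 in P28 stroke, beside the shares of all genes given for the signalling partners. After rescaling the counts were 1 and 2, 0 and 2, 0 and 1, 0 and 1, 0 and 0, and 2 and 2 in the same order. St3gal6 and St3gal5 each fell in 12 of 18 comparisons and in 11 after rescaling, and St6galnac4 in 10 and 4. St3gal6 held 117 TPM in cuprizone GFP-positive cells against 244 in GFP-negative cells, a drop of 1.05 (adjusted p = 5e-05). St8sia6, of the family that links sialic acids to each other, rose against controls in cuprizone GFP-positive cells (2.35, adjusted p = 0.0023) and in both GFP arms of 5xFAD and fell in both of EAE (-2.77 and -2.19, adjusted p = 0.00074 and 0.0022). Of the sialidase list, the lysosomal Neu1 was called in 0 of 18 comparisons, and in 7, all higher, after rescaling. Ctsa, which protects Neu1 in the lysosome, rose in 8 and fell in 2 (9 and 1 after rescaling), the latter in glioma against controls. Glb1, its other lysosomal partner, rose in 8 and fell in 1 (11 and 0 after rescaling). Neu3 fell in GFP-positive cells of glioma and 5xFAD against controls (-0.72 and -1.25, adjusted p = 0.048 and 0.043), calls not made after rescaling, and Neu2 and Neu4 were not above 0.0148 TPM on average over the 67 libraries.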

How the data were processed

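The authors deposited 1 table of TPM values for each of the 6 settings. Per the submitters' processing notes, the tools named are cutadapt 2.10, STAR 2.7.5c, RSEM 1.3.3 and edgeR 3.32.0 with the build GRCm38; no source used here gives their order, their settings or whether counting used strand. TPM values hold no depth, so no interval of counting error can be given; 2000 cells per library and 3 or 4 libraries per group limit the precision.

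Values were analysed as log2(TPM + 1). Each table was fitted separately over its 3 groups with limma 3.58.1 (R 4.3.3, trended moderation, Benjamini-Hochberg adjustment over all tested genes, threshold 0.05), for genes that reached 1 TPM in a number of libraries equal to the smallest group. Tests between tables used 11301 genes and an F test weighted by the spread of each table. The fits were tested on simulated data. There the weighted F test made more false calls than its threshold allows, so a second F test with gene-wise spread per table was added after the data were seen; it made fewer, but still more than the threshold allows. Alternatives were a pseudocount of 0.1, no filter, a filter at 5 TPM, median-of-ratios rescaling, array weights, only the groups compared, the replicate number as a block, each library left out in turn and, in cuprizone and the P6 stroke, a term for sex. Sex was inferred from the Ddx3y level of each library at a cut of 10 TPM. That term was also added after the data were seen. Figures were drawn with Python 3.11.15 and matplotlib 3.10.9.

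The members and all gene lists were chosen with earlier results of these data known. Of each pathway list at most 6 genes are named, those called in most of the 18 comparisons, with ties broken by mean TPM; some results on listed genes are not reported here. The like genes are the 3 of highest Pearson r among named genes of at least 10 TPM. Marker lists were drawn up by cell type.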

Additional observations from a re-analysis of the deposited data

Results flagged for a closer look

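Of 78 groups of 4 libraries tested for a library far from the others, 2 were marked, and chance marks about 1 in 20. Siglech in 5xFAD control library 2 was 1406.28 TPM, against 1615.76 to 1641.68 TPM in the other controls. Siglecg in contralateral library 4 of the P6 stroke was 6.6 TPM, against 4.01 to 4.31 TPM in the other 3.

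Differences that varied between the 6 settings were marked where both F tests called them, with the adjusted p of the weighted test given here; on simulated data both tests made more false calls than their threshold allows. For GFP-positive minus GFP-negative cells it was 1.38e-07 for Siglech, 5.31e-07 for Siglece and 0.00657 for Cd33. For GFP-negative cells minus the reference it was 1.91e-07 for Siglech, 5.97e-08 for Siglece, 0.000134 for Siglecg, 0.00204 for Cd22 and 3.3e-07 for Cd33. For GFP-positive cells minus the reference it was 2.42e-18 for Siglech, 2.29e-15 for Siglece, 0.00251 for Siglecg, 1.63e-06 for Cd22 and 6.68e-12 for Cd33. The kind of reference, wild-type controls or contralateral cells of reporter mice, also differs between settings and cannot be told apart in these comparisons. Siglecg rose by 1.24 in glioma GFP-negative cells and fell by 1.92 in those of 5xFAD. Cd22 rose in GFP-positive cells against the reference in 5 settings and was 0.32 higher, without passing the test, in the P6 stroke.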

How the results depend on the processing

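Counts of members called kept within 1.5 times of those reported in the settings named in the processing account, with these exceptions. In EAE GFP-negative cells against controls the 5 members became 3 with no filter, with rescaling (2 higher and 1 lower) and with only those 2 groups fitted; between the EAE GFP arms 1 became 4 with array weights. Between the P6 stroke GFP arms the 1 member became 0 with a pseudocount of 0.1, with no filter, with rescaling and with 2 groups; against contralateral cells its 2 members became 0 with no filter or rescaling and 1 with 2 groups. In P28 stroke GFP-negative cells against contralateral cells the 1 member became 0 with no filter or 2 groups. Rescaling turned Siglech in 5xFAD GFP-positive cells against controls from -0.57 to 0.125306 (adjusted p = 0.39). The cause was not tested.

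Leaving out 1 library at a time moved the counts between 1 and 2 for the EAE GFP arms, 3 and 4 for EAE GFP-negative against control, 4 and 6 for EAE GFP-positive against control, 0 and 2 for both P6 stroke comparisons of GFP-positive cells, and 0 and 1 for P28 stroke GFP-negative against contralateral. Elsewhere a count moved by at most 1. The lowest EAE counts came without control 1, 2 or 3 or GFP-negative 3, and without control 1 or GFP-positive 1.

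Whether replicate numbers pair the libraries was not settled. Correlations of same-numbered libraries ran from -0.0797 to 0.203. Between the GFP arms, the same-numbered library gave the highest correlation for 3 of 4 numbers in glioma, 5xFAD and the P6 stroke. It did so for 2 of 3 in cuprizone, 2 of 4 in the P28 stroke and 1 of 3 in EAE. For GFP-negative with reference cells this ran from 0 of 3 in cuprizone to 4 of 4 in the P6 stroke. The main fits treat the arms as independent. With the replicate block, counts were the same within 1.5 times, and 2 of 102 member comparisons lost their call, Cd33 between the cuprizone GFP arms (adjusted p = 0.0614) and in EAE GFP-negative cells (0.0547). Over 102 member comparisons, rescaling lost 12 calls, 1 of them with the sign turned, and no filter lost 10. Depth is unknown, which limits what values near 0 show.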
